A study of Mus musculus with 20 samples.

Results

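The transforming growth factor beta (TGF-beta) core genes, 3 ligands (Tgfb1, Tgfb2 and Tgfb3), 3 receptors (Tgfbr1, Tgfbr2 and Tgfbr3) and 4 SMADs (Smad2, Smad3, Smad4 and Smad7), were followed by gene symbol through bulk RNA sequencing of mouse liver tumors and control livers. All 10 genes were found among the 50559 genes of the count tables, and all 10 were among the 14333 that passed the filter on low counts. The 20 libraries came from 4 groups of 5 wild-type C57Bl6J mice: control livers, and tumors raised with FGF19 + MYC, with Aldafermin + MYC or with sgTrp53 + MYC. The tumors were raised in young adult females by hydrodynamic gene transfer, a rapid tail vein injection that carries plasmids into a fraction of the hepatocytes, and MYC was delivered to all 3 tumor groups. FGF19 is a human gut hormone that lowers bile acid synthesis in the liver. Aldafermin is its analog with an altered amino-terminal end. sgTrp53 is a CRISPR guide against Trp53, the gene of the p53 tumor suppressor. The study's text describes the control livers as injected with a plasmid for a red fluorescent protein, whereas the labels call them non treated. The condition of the sgTrp53 + MYC tumors was taken from the sample titles, because their treatment label reads none. Each tumor was a separate nodule of mixed cell content, and the control was whole liver, not sorted hepatocytes.

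TGF-beta ligands are secreted in a latent form and, once released, bind a type II receptor (Tgfbr2) that phosphorylates a type I receptor (Tgfbr1), with Tgfbr3 as a co-receptor that presents the ligand. The type I receptor phosphorylates Smad2 and Smad3, which join Smad4 and enter the nucleus. Smad7 is induced by the pathway and inhibits it. In liver, the pathway is known for limiting hepatocyte proliferation and for driving matrix production by stellate cells, and in tumors it has been tied both to growth arrest and to invasion.

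Gene counts summed to 18004977 reads in the shallowest library and to 66354724 in the deepest, and the 5 sgTrp53 + MYC libraries (54042455 to 66354724 reads) came in a separate table. Condition and table cannot be told apart wherever sgTrp53 + MYC tumors are compared, and reads ambiguous between genes made up 11.1 to 14.6% of the reads in that table against 3.03 to 6.30% in the other. Trp53 itself was at 46.8 ± 22.6 CPM (counts scaled to the normalized size of the library, SD, n = 5) in sgTrp53 + MYC tumors, 140 ± 17.9 in FGF19 + MYC tumors, 138 ± 32.5 in Aldafermin + MYC tumors and 32.8 ± 2.98 in livers. A guide that edits the gene need not remove its RNA, so this level is only a partial check of the label. Mouse Myc was at means of 3.06 to 4.33 CPM in the 3 tumor groups and 7.45 CPM in livers, and these reads on the mouse gene are no check of the MYC that was delivered. All 8 hepatocyte markers, Alb and Hnf4a among them, were detected in every library. All 8 were lower than in liver in both kinds of tumor, where 33.0 to 34.5% of all genes tested were. FGF19 + MYC replicate 1 stood apart: it had the fewest reads, 34.0% of its reads were not aligned, and it was the lowest of its group for 10 of the 10 genes, whereas it was the lowest for 40.8% of all genes tested. Aldafermin + MYC replicate 3 was the highest of its group for 5 of the 10 (Tgfb1, Tgfb2, Tgfb3, Tgfbr2 and Smad7), whereas it was the highest for 19.9% of all genes tested.

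**Figure D1:**
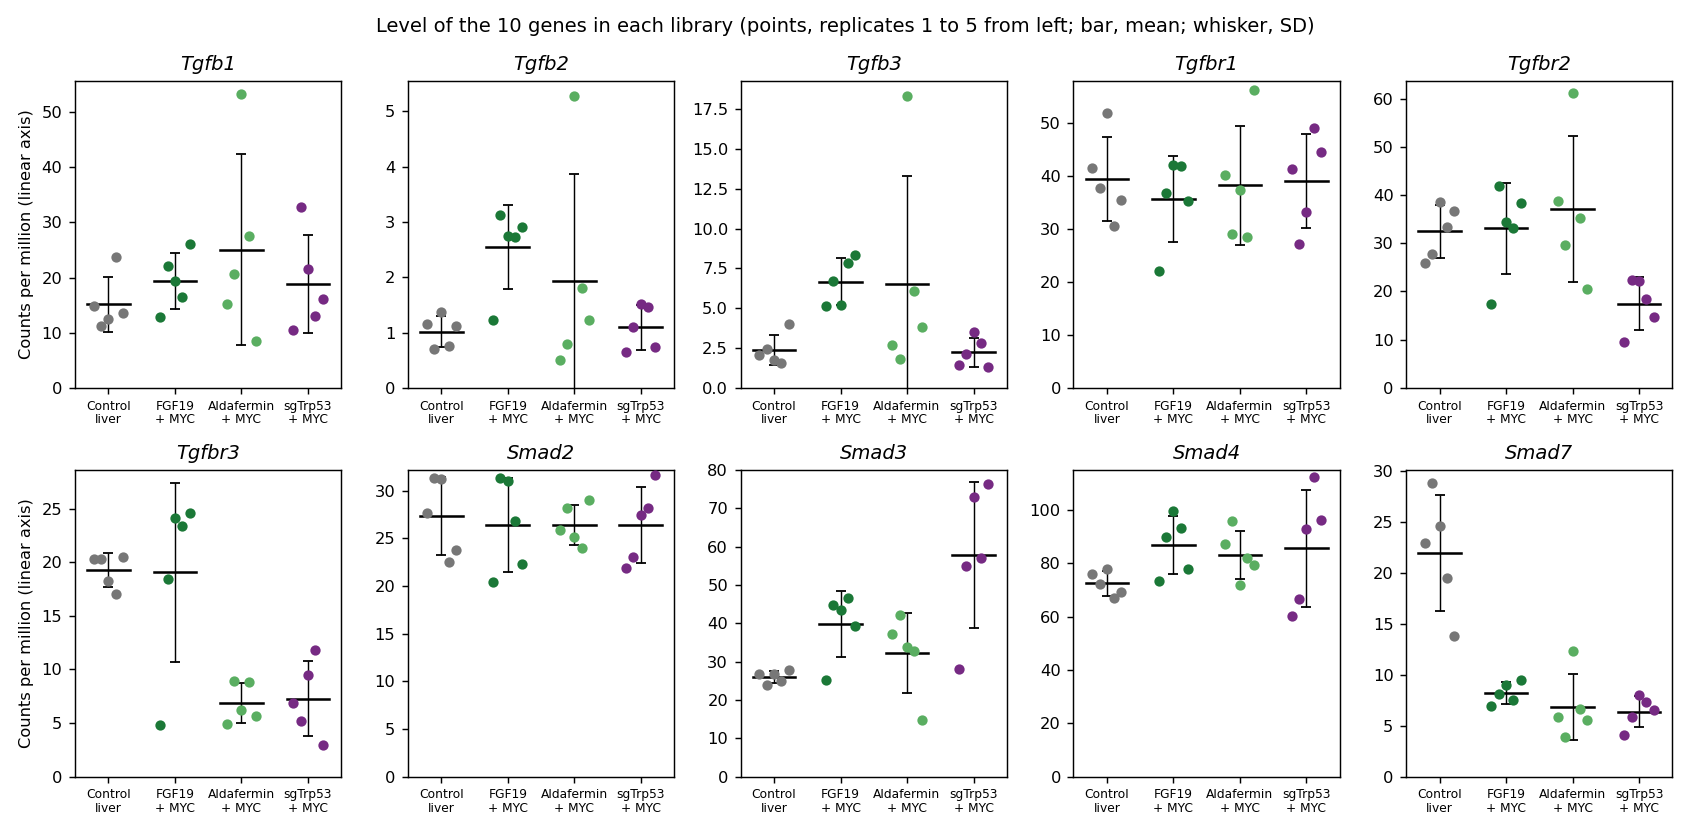
Level of each of the 10 genes in CPM on a linear axis from 0, with the library groups on the horizontal axis. Points are libraries, bars are group means and whiskers are SD; Smad7 was between 13.8 and 28.9 CPM in the livers and at most 12.4 CPM in every tumor.

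Aldafermin + MYC tumors were set against FGF19 + MYC tumors first, to compare the hormone and its analog. By edgeR's quasi-likelihood test with Benjamini-Hochberg adjustment, 0 of the 10 genes differed, and 0.0% of all genes tested did (1048 of them had an unadjusted p under 0.05, and DESeq2 and edgeR's likelihood ratio test called 96 and 93 genes). This was the 1 pair of related molecules in the series, without a dose series. CPM did not overlap between these tumor groups for 1.46% of all genes, 1.07% with higher and 0.391% with lower levels in Aldafermin + MYC tumors, and overlapped for all 10 members. For 9 of the 10 genes the log2 fold change lay between -0.41 and 0.37. The 95% intervals were narrowest for Smad2 (-0.30 to 0.30) and Smad4 (-0.37 to 0.25) and widest for Tgfb2 (-1.42 to 0.60) and Tgfb3 (-1.03 to 0.98). A change by about a log2 unit lies within the intervals of Tgfb2, Tgfb3 and also Tgfb1 (-0.44 to 1.18). The exception in size was Tgfbr3, described with the receptors.

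The mean of FGF19 + MYC and Aldafermin + MYC tumors, called FGF-type tumors here, was then set against sgTrp53 + MYC tumors and against liver. Against sgTrp53 + MYC tumors, Tgfb3 and Tgfbr2 were higher and Smad3 was lower, 3 of 10 genes where 23.7% of all genes tested were called (11.6% higher and 12.1% lower). In bulk samples, fewer cells of a type and less RNA per cell cannot be told apart. Against liver, Tgfb2 and Tgfb3 rose and Tgfbr3 and Smad7 fell in FGF-type tumors, 4 of 10 against a background of 73.7% (39.2% higher and 34.5% lower). In sgTrp53 + MYC tumors against liver, Smad3 rose and Tgfbr2, Tgfbr3 and Smad7 fell, 4 of 10 against 69.9% (36.9% higher and 33.0% lower). Both counts against liver are below the share of all genes called, a description with no test. Their median log2 fold change was 0.23 against sgTrp53 + MYC tumors, where that of all genes was -0.02, and 0.17 and -0.03 in the FGF-type and sgTrp53 + MYC tumors against liver, where those of all genes were 0.10 and 0.07. The comparisons with liver share the 5 livers, and those with sgTrp53 + MYC tumors share those 5 tumors.

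**Figure D2:**
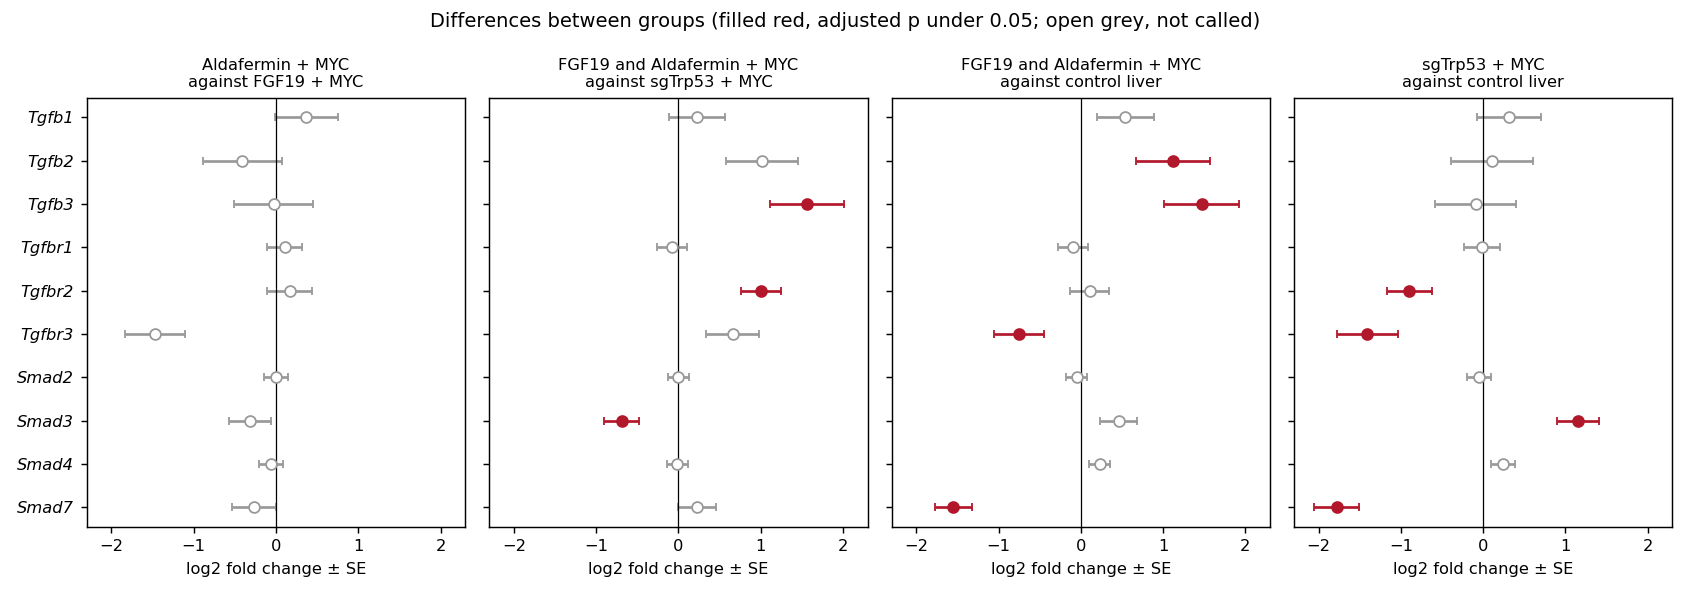
Log2 fold change (horizontal axis) with its SE for the 10 genes in the 4 comparisons, from one edgeR quasi-likelihood fit. Filled red points passed an adjusted p of 0.05; Tgfb3 and Tgfbr2 are right of 0 and Smad3 is left of 0 in the second panel, and Smad7 has the lowest value in the panels against liver.

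Among the ligands, Tgfb3 had the largest difference between the tumor types. Tgfb3 lies on chromosome 12 (86102756 to 86126301, minus strand, GRCm39 with GENCODE M39 annotation, as for all positions of genes given here) and encodes an isoform best known from palate and mesenchymal development. It was at 5.13, 6.74, 5.21, 7.84 and 8.37 CPM in FGF19 + MYC tumors, at 2.67, 1.81, 18.3, 6.08 and 3.82 in Aldafermin + MYC tumors, at 1.42, 2.13, 3.48, 2.80 and 1.34 in sgTrp53 + MYC tumors and at 2.08, 2.46, 1.77, 1.57 and 3.98 in livers. Every FGF19 + MYC tumor was above every sgTrp53 + MYC tumor and every liver, whereas the Aldafermin + MYC tumors overlapped both. The share of all genes that separate FGF19 + MYC tumors alone in this way was not computed. Of the 10 FGF-type tumors, 8 were above all sgTrp53 + MYC tumors; none of the 10 members separated these tumor types fully, as 5.7% of all genes did (3.28% higher and 2.42% lower). The log2 fold change was 1.56 (SE 0.45, adjusted p = 0.0170 by edgeR's quasi-likelihood test) against sgTrp53 + MYC tumors and 1.47 (SE 0.45, adjusted p = 0.00671) against liver, whereas sgTrp53 + MYC tumors differed from liver by -0.09 (SE 0.49, adjusted p = 0.875). Taken alone, FGF19 + MYC tumors exceeded sgTrp53 + MYC tumors by 1.57 (SE 0.49, adjusted p = 0.0359) and Aldafermin + MYC tumors by 1.55 (SE 0.49, adjusted p = 0.0355). Aldafermin + MYC replicate 3 held the highest value, and without it the difference from sgTrp53 + MYC tumors was 1.13 (adjusted p = 0.0179); without sgTrp53 + MYC replicate 5 the call was lost (1.42, adjusted p = 0.0510). Of the exon bases of Tgfb3, 6.46% are shared with Gm48008, 3.43% with Ttll5 and 3.13% with Gm37804, all on the opposite strand. The strand setting of the read counting is not given in the sources used here.

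Tgfb2, on chromosome 1 (186354985 to 186438294, minus strand), was the scarcest of the 10 genes per length in each group. Its levels were 1.23, 3.13, 2.74, 2.73 and 2.92 CPM in FGF19 + MYC tumors, 0.510, 0.794, 5.28, 1.81 and 1.23 in Aldafermin + MYC tumors, 0.642, 1.11, 1.52, 1.46 and 0.737 in sgTrp53 + MYC tumors and 1.15, 0.697, 1.37, 0.751 and 1.12 in livers. The liver values rest on 11 to 31 reads a library. FGF19 + MYC replicates 2 to 5 were above all livers and all sgTrp53 + MYC tumors, as were Aldafermin + MYC replicates 3 and 4. Against liver the log2 fold change was 1.12 (SE 0.45, adjusted p = 0.0309 by edgeR's quasi-likelihood test), a call that was lost in 4 of 15 fits with a library left out, among them that without Aldafermin + MYC replicate 3 (0.71, adjusted p = 0.0635). With Aldafermin + MYC tumors alone the difference from liver was 0.92 (SE 0.50, adjusted p = 0.107), and with FGF19 + MYC tumors alone it was 1.33 (SE 0.50, adjusted p = 0.0242). Against sgTrp53 + MYC tumors the difference of 1.02 (SE 0.43, adjusted p = 0.0968) did not pass, although it did without Aldafermin + MYC replicate 1 (1.14, adjusted p = 0.0454), and without Aldafermin + MYC replicate 3 it was 0.60 (adjusted p = 0.197). In sgTrp53 + MYC tumors against liver Tgfb2 was at 0.11 (SE 0.49, adjusted p = 0.856).

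The upstream sequences of Tgfb2 and Tgfb1 are shown because they are the ligands with an entry in the RefSeq promoter table (GRCm38.p6), and because Tgfb2 passed the test in FGF-type tumors against liver while Tgfb1 passed it in no comparison. The stretches end where annotated transcripts begin, the Tgfb2 stretch 108 bases and the Tgfb1 stretch 37 bases before the RefSeq start site. Capitals mark CAGAC, the core of a SMAD binding element, searched on both strands together with CACGTG, the E-box bound by MYC and its partner MAX.
Tgfb2 (chr1:186706098-186706239, minus strand): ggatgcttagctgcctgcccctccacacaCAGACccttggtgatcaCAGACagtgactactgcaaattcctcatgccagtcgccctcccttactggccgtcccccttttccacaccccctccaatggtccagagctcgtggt
Tgfb1 (chr7:25686752-25686964, plus strand): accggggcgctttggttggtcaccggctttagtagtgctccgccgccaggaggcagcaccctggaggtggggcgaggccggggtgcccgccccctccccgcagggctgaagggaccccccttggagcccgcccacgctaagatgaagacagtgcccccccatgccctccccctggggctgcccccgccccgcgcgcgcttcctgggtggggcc
Tgfb2 E-box in capitals (chr1:186706023-186706052, minus strand): gttgaaggcaaaCACGTGgtttggggagca
In the 250 bases before its start, Tgfb2 held CAGAC at 2 places, 200 to 204 and 217 to 221 bases upstream, and CACGTG 46 to 51 bases upstream. Across 32851 promoters of the table, 42.2% held CAGAC and 6.02% held CACGTG in windows of the same length. The Tgfb1 window held neither motif. Of the 10 genes, 5 had an entry, and besides Tgfb2 CAGAC was found in windows of Tgfbr1 and Tgfbr2 and CACGTG in none. Tgfbr1 had 2 entries, and only the one farther downstream held CAGAC. The CAGAC of Tgfbr2 and the CACGTG of Tgfb2 lie inside annotated transcripts. A match of letters is a description and was not set against binding data.

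Tgfb1, the main isoform of injured liver, ranged from 8.53 to 53.4 CPM in Aldafermin + MYC tumors, from 12.8 to 26.0 in FGF19 + MYC tumors, from 10.4 to 32.8 in sgTrp53 + MYC tumors and from 11.2 to 23.8 in livers. The groups overlapped throughout. Its log2 fold changes were 0.54 (SE 0.34, adjusted p = 0.163 by edgeR's quasi-likelihood test) in FGF-type tumors against liver, 0.31 (SE 0.39) in sgTrp53 + MYC tumors against liver and 0.23 (SE 0.34) between the tumor types, none of them past the threshold. These values moved with single libraries. Against liver, FGF-type tumors were at 0.30 without Aldafermin + MYC replicate 3 and at 0.72, past the threshold (adjusted p = 0.0391 by edgeR's quasi-likelihood test), without Aldafermin + MYC replicate 5. sgTrp53 + MYC tumors were at 0.016 against liver without their replicate 2 and at 0.52 without liver replicate 4.

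Tgfbr2, the ligand-binding kinase receptor on chromosome 9 (115913361 to 116004800, minus strand), had its lowest mean in sgTrp53 + MYC tumors. Levels were 9.52, 22.5, 22.2, 18.4 and 14.7 CPM in sgTrp53 + MYC tumors, 17.5, 41.8, 34.5, 33.2 and 38.4 in FGF19 + MYC tumors, 38.8, 29.6, 61.1, 35.3 and 20.5 in Aldafermin + MYC tumors and 25.9, 27.9, 38.6, 33.4 and 36.8 in livers. The sgTrp53 + MYC tumors did not overlap the livers, which was so for 56.2% of all genes tested, 27.4% in that direction and 28.8% in the other, and 8 of the 10 FGF-type tumors were above all sgTrp53 + MYC tumors. FGF19 + MYC replicate 1 and Aldafermin + MYC replicate 5 fell within the sgTrp53 + MYC range. FGF-type tumors exceeded sgTrp53 + MYC tumors by a log2 fold change of 1.00 (SE 0.25, adjusted p = 0.00698 by edgeR's quasi-likelihood test), and the call was kept in all 15 fits with a library left out (0.85 to 1.11). Against liver, sgTrp53 + MYC tumors differed by -0.90 (SE 0.28, adjusted p = 0.00747) and FGF-type tumors by 0.11 (SE 0.24, adjusted p = 0.695). When no filter on low counts was applied the difference of sgTrp53 + MYC tumors from liver was -0.61 (adjusted p = 0.0632), in a fit in which the median of all genes moved by 0.29. Of the exon bases of Tgfbr2, 5.04% are shared with Gm4668 on the opposite strand.

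Tgfbr3, the co-receptor betaglycan on chromosome 5 (107249402 to 107437623, minus strand), gave the largest difference of the 10 genes between Aldafermin + MYC and FGF19 + MYC tumors. In FGF19 + MYC tumors it was at 4.80, 18.4, 24.1, 23.4 and 24.6 CPM, close to the 20.3, 20.3, 18.2, 17.0 and 20.5 of the livers apart from replicate 1. In Aldafermin + MYC tumors it was at 4.91, 8.93, 6.19, 8.85 and 5.61, and in sgTrp53 + MYC tumors at 6.85, 5.18, 9.50, 11.8 and 2.96. All Aldafermin + MYC and all sgTrp53 + MYC tumors were below all livers, whereas FGF19 + MYC replicates 2 to 5 were above every other tumor. Of all genes tested, 27.4% were likewise lower in each sgTrp53 + MYC tumor than in any liver. That share was not computed for Aldafermin + MYC tumors alone. By their sample names, FGF19 + MYC replicates 2 to 5 are numbered consecutively. Replicate 1 and the Aldafermin + MYC tumors are numbered apart from them. What these numbers stand for is not given, and their part in the difference of Tgfbr3 was not tested. Aldafermin + MYC tumors differed from FGF19 + MYC tumors by -1.47 (SE 0.37, 95% interval -2.24 to -0.70), with an unadjusted p = 0.000762 but an adjusted p = 0.185 by edgeR's quasi-likelihood test over all genes. DESeq2 and edgeR's likelihood ratio test called it (adjusted p = 0.0143 and 0.0219). Without FGF19 + MYC replicate 1 the difference was -1.71 (adjusted p = 0.0676), and over the 10 fits with a library left out it ran from -1.71 to -1.36 with adjusted p from 0.0676 to 0.505. Markers of Kupffer cells and of endothelium were also lower in Aldafermin + MYC tumors by their medians, with log2 fold changes of -1.21 and -0.68 over 8 genes each. The lowest of each list were Marco (-2.33, SE 0.67, adjusted p = 0.310 by edgeR's quasi-likelihood test) and Clec4g (-1.92, SE 1.02, adjusted p = 0.759). Within the same lists Adgre1 (0.41), Cd68 (0.67), Csf1r (0.16) and Pecam1 (0.24) were higher, and Cdh5 was at -0.05. Medians of the other marker lists were -0.72 (biliary), -0.32 (hepatocyte), -0.04 (stellate), 0.69 (T and NK cell) and 0.40 (neutrophil). The T and NK cell and neutrophil medians rest on 2 tested genes each. The part of these cell types in the difference of Tgfbr3 was not tested.

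The pooled value of Tgfbr3 averages over this difference. Against liver, FGF-type tumors differed by -0.75 (SE 0.31, adjusted p = 0.0335 by edgeR's quasi-likelihood test), Aldafermin + MYC tumors alone by -1.48 (SE 0.37, adjusted p = 0.00145) and FGF19 + MYC tumors alone by -0.01 (SE 0.36, adjusted p = 0.975). The pooled call was lost in 5 of 15 fits with a library left out (Aldafermin + MYC replicates 1 and 5 and liver replicates 1, 2 and 5, adjusted p 0.0550 to 0.0692). sgTrp53 + MYC tumors were at -1.41 (SE 0.37, adjusted p = 0.00211) against liver. Between the tumor types, FGF19 + MYC tumors alone exceeded sgTrp53 + MYC tumors by 1.39 (SE 0.37, adjusted p = 0.0147) while Aldafermin + MYC tumors alone were at -0.08 (SE 0.36, adjusted p = 0.909).

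Tgfbr1, the type I kinase receptor, passed the test in none of the 4 comparisons. Its level was 35.6 ± 8.10 CPM in FGF19 + MYC tumors, 38.3 ± 11.3 in Aldafermin + MYC tumors, 39.1 ± 8.81 in sgTrp53 + MYC tumors and 39.4 ± 8.0 in livers (SD, n = 5 each). The 95% intervals of its log2 fold changes lay between -0.48 and 0.55 over the 4 comparisons, with 0 calls by edgeR's quasi-likelihood test.

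Smad3, the receptor-activated SMAD that binds DNA directly, lies on chromosome 9 (63554049 to 63665476, minus strand) and was highest in sgTrp53 + MYC tumors. Levels were 28.0, 54.8, 72.8, 57.0 and 76.4 CPM there, 25.2, 44.9, 43.5, 46.5 and 39.3 in FGF19 + MYC tumors, 37.2, 42.3, 33.7, 32.8 and 14.7 in Aldafermin + MYC tumors and 26.8, 23.9, 26.8, 24.9 and 27.7 in livers. All sgTrp53 + MYC tumors were above all livers, as 28.8% of all genes tested were, with replicate 1 only just so. sgTrp53 + MYC replicates 2 to 5 exceeded all 10 FGF-type tumors. The log2 fold change of FGF-type against sgTrp53 + MYC tumors was -0.69 (SE 0.22, adjusted p = 0.0256 by edgeR's quasi-likelihood test), and that of sgTrp53 + MYC tumors against liver was 1.15 (SE 0.26, adjusted p = 0.000576). The first call was lost without sgTrp53 + MYC replicate 3 (-0.60, adjusted p = 0.0785), without sgTrp53 + MYC replicate 5 (-0.57, adjusted p = 0.0919) and with FGF19 + MYC tumors in place of the pooled tumors (-0.54, adjusted p = 0.162). In FGF-type tumors against liver, Smad3 was at 0.46 (SE 0.23, adjusted p = 0.0722), and without Aldafermin + MYC replicate 5, the library at 14.7 CPM, at 0.63 (adjusted p = 0.00461).

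Smad7, the inhibitory SMAD on chromosome 18 (75500374 to 75529006, plus strand), was lower in every tumor than in every liver. Its levels were 23.0, 28.9, 24.6, 19.5 and 13.8 CPM in livers, 6.92, 8.12, 9.02, 7.57 and 9.49 in FGF19 + MYC tumors, 5.83, 3.85, 12.4, 6.65 and 5.53 in Aldafermin + MYC tumors and 4.07, 5.89, 8.05, 7.37 and 6.57 in sgTrp53 + MYC tumors. No tumor reached the lowest liver. FGF-type tumors and livers did not overlap for 54.2% of all genes (28.5% higher, 25.7% lower), and 27.4% of all genes were lower in each sgTrp53 + MYC tumor than in any liver. The log2 fold change was -1.55 (SE 0.22, adjusted p = 3.53e-06 by edgeR's quasi-likelihood test) in FGF-type and -1.78 (SE 0.27, adjusted p = 9.89e-06) in sgTrp53 + MYC tumors, and both calls were kept in every fit with a library left out. The tumor types differed by 0.23 (SE 0.23, adjusted p = 0.506).

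Smad2 and Smad4, on the same chromosome, did not pass the test in any of the 4 comparisons. Smad2, the partner of Smad3 in receptor signaling, was at 26.4 ± 4.96 CPM in FGF19 + MYC tumors, 26.4 ± 2.11 in Aldafermin + MYC tumors, 26.4 ± 3.98 in sgTrp53 + MYC tumors and 27.3 ± 4.10 in livers (SD, n = 5 each). Smad4, the common partner of the receptor-activated SMADs, was at 86.9 ± 10.9, 83.2 ± 9.0, 85.7 ± 21.8 and 72.5 ± 4.59 CPM in the same order, with log2 fold changes against liver of 0.23 (SE 0.13, adjusted p = 0.120 by edgeR's quasi-likelihood test) and 0.24 (SE 0.15, adjusted p = 0.157).

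Per length (CPM per kb of summed exons), Smad4 was the most abundant of the 10 transcripts in every group and Tgfb2 the least. Tgfb1 made up most ligand transcripts per length, 69.1% ± 3.94 in FGF19 + MYC tumors, 77.4% ± 10.02 in Aldafermin + MYC tumors, 84.98% ± 5.88 in sgTrp53 + MYC tumors and 81.9% ± 6.56 in livers (SD, n = 5 each). The share of Tgfb3 was 19.1 to 28.96% in FGF19 + MYC tumors and 5.79 to 16.2% in sgTrp53 + MYC tumors, without overlap, while Aldafermin + MYC tumors spanned 7.65 to 28.1% and livers 5.91 to 21.2%. The ligand mix of FGF19 + MYC tumors thus held more Tgfb3 in each library than that of any sgTrp53 + MYC tumor. With the longest transcript in place of summed exons, the Tgfb1 share of FGF19 + MYC tumors was 78.1%.

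Receptor shares differed too. Tgfbr1 made up 55.3 to 76.2% of receptor transcripts per length in sgTrp53 + MYC tumors and 42.3 to 52.6% in livers, which did not overlap. Tgfbr3 held 17.9 to 25.0% in livers, 6.39 to 14.4% in Aldafermin + MYC tumors and 4.90 to 15.5% in sgTrp53 + MYC tumors, and 20.7 to 27.0% in FGF19 + MYC replicates 2 to 5 against 11.6% in replicate 1. Among the SMADs, the inhibitory Smad7 held 15.0 to 26.5% in livers and 3.40 to 12.7% over all tumors, whereas Smad3 held 17.9 to 24.7% in livers and 30.4 to 43.2% in sgTrp53 + MYC tumors. These shares are descriptions with no test, and the share of 1 gene depends on the others of its family.

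**Figure D3:**
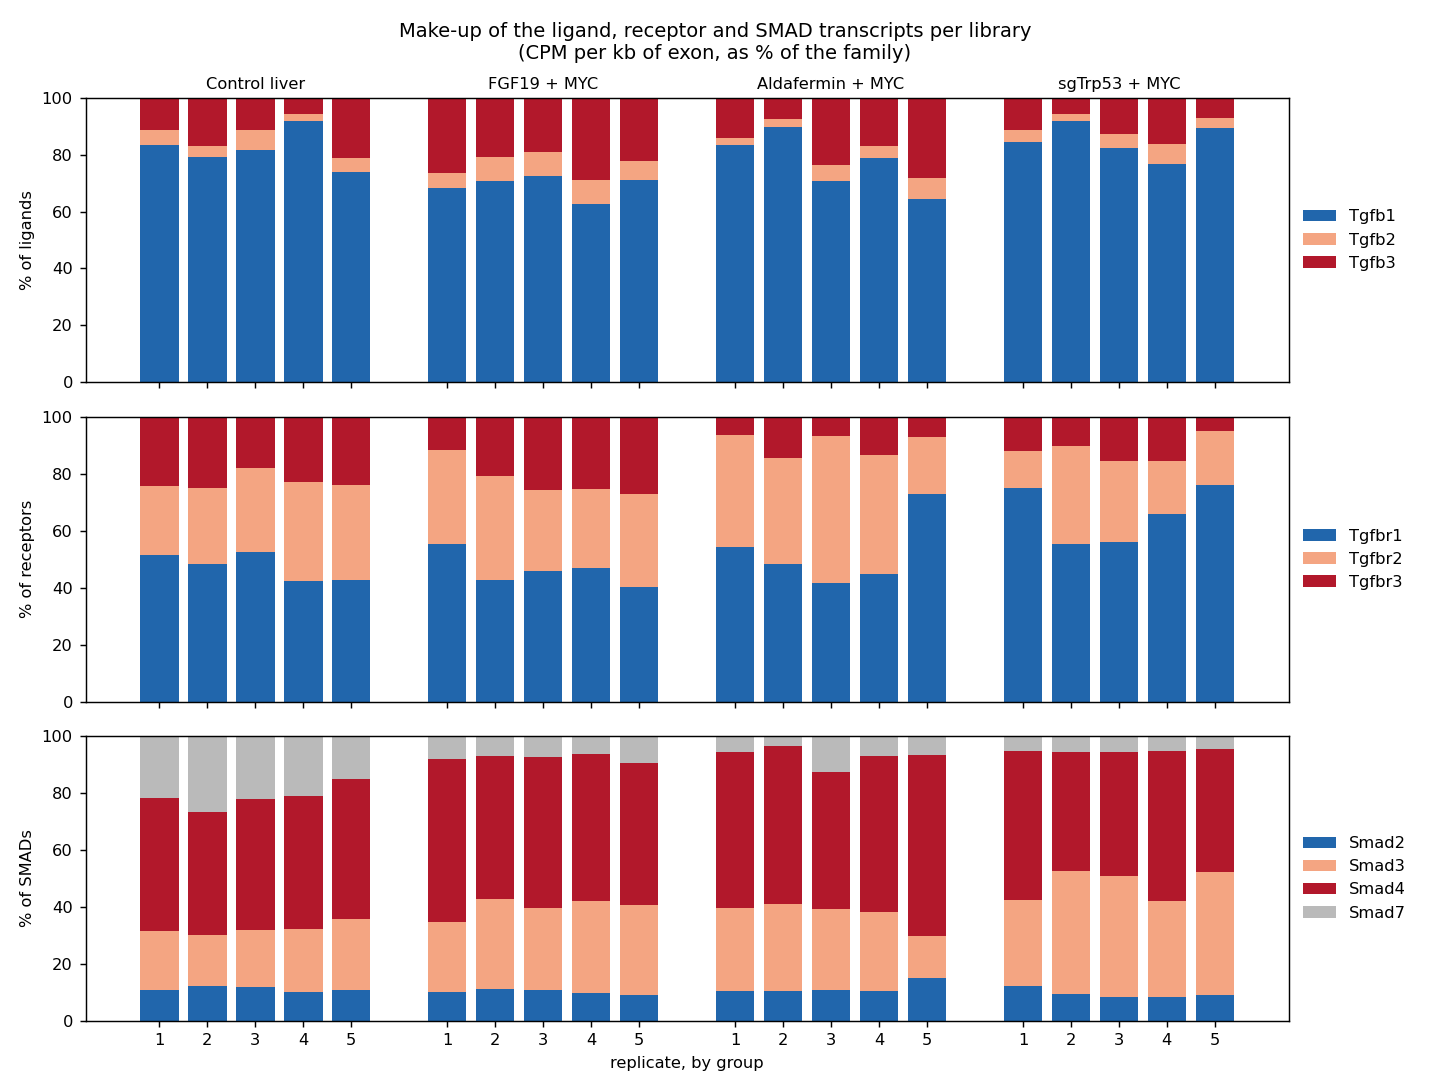
Make-up of ligand, receptor and SMAD transcripts in each library, as percent of CPM per kb of exon within the family (vertical axis), by group and replicate (horizontal axis). The red Tgfb3 segment is 19.1 to 28.96% in FGF19 + MYC tumors and at most 16.2% in sgTrp53 + MYC tumors, and the grey Smad7 segment is 15.0 to 26.5% in livers.

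Other genes of the pathway were described as 4 lists. At most the 3 called genes with the largest change are named per list and comparison. A gene named for 1 tumor type against liver may therefore have changed in the other as well. Of 20 tested response genes, which TGF-beta is known to induce or which mark matrix-producing cells, 8 were higher and 0 lower in FGF-type than in sgTrp53 + MYC tumors, beside 11.6% higher and 12.1% lower among all genes, and their median log2 fold change was 0.87. The largest changes were those of Cdkn1a (2.29, SE 0.44, adjusted p = 0.00108 by edgeR's quasi-likelihood test), a cell cycle inhibitor that is also a direct target of p53, Ccn2 (1.67, SE 0.50, adjusted p = 0.0208), a matricellular protein, and Fn1 (1.48, SE 0.32, adjusted p = 0.00264), the matrix protein fibronectin. Fn1 is also secreted by normal hepatocytes, and of the 8 hepatocyte markers Alb (1.65, SE 0.46) and Apoa1 (1.70, SE 0.31) were higher and Cps1 (-1.05, SE 0.20) lower in FGF-type than in sgTrp53 + MYC tumors, with a median of 1.02; their part in the difference of Fn1 was not tested. Cdkn1a was at 104 to 164 CPM in FGF19 + MYC tumors, 47.3 to 138 in Aldafermin + MYC tumors, 18.8 to 32.8 in sgTrp53 + MYC tumors and 1.15 to 16.6 in livers. The tumor types thus did not overlap, as was so for 3.28% of all genes in that direction. Cdkn1a, Ccn2 and Fn1 were called in each of the 15 fits with a library left out, although Ccn2 lost its call with FGF19 + MYC tumors alone (1.55, adjusted p = 0.0583) and with Aldafermin + MYC replicate 3 and sgTrp53 + MYC replicate 2 both left out (1.20, adjusted p = 0.0564). Over the fits with a library left out, 5 to 9 response genes were called.

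Against liver, 12 response genes rose and 5 fell in FGF-type tumors, and 8 rose and 8 fell in sgTrp53 + MYC tumors, with medians of 1.27 and 0.12. Among all genes, 39.2% rose and 34.5% fell in the first of these comparisons and 36.9% rose and 33.0% fell in the second. Acta2, smooth muscle actin of activated stellate cells and vessel walls, rose by 4.84 (SE 0.53, adjusted p = 9.89e-08 by edgeR's quasi-likelihood test) in FGF-type tumors, from 1.32 to 2.87 CPM in livers. Lox, a collagen cross-linking enzyme, rose by 4.42 (SE 0.58) and 3.95 (SE 0.60) in FGF-type and sgTrp53 + MYC tumors, from at most 8 reads (0.309 CPM) in each liver. In the opposite direction, Fn1 fell by 4.23 on the log2 scale (SE 0.39) and Snai2, a repressor of epithelial genes, fell by 4.14 (SE 0.57) in sgTrp53 + MYC tumors. FGF-type tumors exceeded sgTrp53 + MYC tumors in Fn1 by 1.48, which is less than this fall. The level of Fn1 in FGF-type tumors was therefore also below that of liver. The 8 hepatocyte markers fell alongside Fn1, and their part in this change was not tested.

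Of 14 tested genes for latency and activation of the ligands, 3 were higher and 2 lower in FGF-type than in sgTrp53 + MYC tumors, where 11.6% and 12.1% of all genes were. The count of 5 was not stable, with 1 to 5 calls over the fits with a library left out and 1 to 6 under other settings. Lrrc32, which tethers latent TGF-beta to the cell surface, was higher by 1.14 (SE 0.39, adjusted p = 0.0424 by edgeR's quasi-likelihood test), and the latent binding proteins Ltbp1 (-2.77, SE 0.80) and Ltbp3 (-1.30, SE 0.46) were lower. Both of these last differences rested on 1 library. Ltbp1 was at 22.1 CPM in sgTrp53 + MYC replicate 4 against a group median of 0.704, and without that library the difference was -0.04 (adjusted p = 0.974). Ltbp3 was at -0.29 (adjusted p = 0.618) without sgTrp53 + MYC replicate 2. The call of Lrrc32 was kept in 5 of 15 fits with a library left out. Against liver, 3 rose and 7 fell in FGF-type tumors (all genes 39.2% and 34.5%), and 2 rose and 7 fell in sgTrp53 + MYC tumors (all genes 36.9% and 33.0%). Thbs1, an activator of the latent ligand, rose by 4.00 (SE 0.72) in FGF-type tumors, and Dcn, the TGF-beta-binding proteoglycan decorin of stellate cells, fell by 2.93 (SE 0.37) and 3.33 (SE 0.49) on the log2 scale. Cd109, an accessory protein that dampens TGF-beta receptor signaling, was at 0 or 1 read in each liver and at 0.987 to 9.78 CPM in tumors. The endothelial co-receptor Eng fell by 2.72 (SE 0.39) in sgTrp53 + MYC tumors against liver.

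Among 20 other SMADs and regulators, 1 was higher and 3 lower in FGF-type than in sgTrp53 + MYC tumors (all genes 11.6% and 12.1%), a count that ran from 1 to 5 over the fits with a library left out and from 0 to 4 under other settings. Against liver, 5 rose and 8 fell in FGF-type tumors (all genes 39.2% and 34.5%), and 6 rose and 7 fell in sgTrp53 + MYC tumors (all genes 36.9% and 33.0%). Tgif2, a SMAD corepressor, rose by 5.99 (SE 0.24, adjusted p = 1.27e-13 by edgeR's quasi-likelihood test) and 5.44 (SE 0.24, adjusted p = 5.89e-13) against liver, from 0.359 to 0.843 CPM in livers to 26.2 to 54.6 CPM in tumors, the largest change of the list, and was higher by 0.55 (SE 0.17) in FGF-type than in sgTrp53 + MYC tumors. Fkbp1a, which holds the type I receptor inactive, rose by 2.16 (SE 0.13) and 2.07 (SE 0.14). Ldlrad4, a SMAD inhibitor at the membrane, fell by 2.68 (SE 0.33) in FGF-type tumors and was lower there than in sgTrp53 + MYC tumors by a log2 fold change of -1.24 (SE 0.33), as was the ubiquitin ligase Nedd4l (-0.52, SE 0.16). The call of Ldlrad4 between the tumor types was kept in all 15 fits with a library left out, that of Tgif2 in 12 and that of Nedd4l in 13. Ldlrad4 lost it with Aldafermin + MYC tumors alone (-0.84, adjusted p = 0.146 by edgeR's quasi-likelihood test), and Tgif2 and Nedd4l each lost theirs under 5 of 13 other settings, the GC and length correction (0.38, adjusted p = 0.157, and -0.43, adjusted p = 0.0938) among them. Smad6, the other inhibitory SMAD, fell by 1.95 (SE 0.44) in sgTrp53 + MYC tumors against liver.

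Of 8 tested receptors of the wider family, 3 were higher and 0 lower in FGF-type than in sgTrp53 + MYC tumors: the decoy receptor Bambi (1.14, SE 0.38), Acvrl1 (0.96, SE 0.29), a type I receptor of endothelium, and Acvr1 (0.44, SE 0.14). Among all genes, 11.6% were higher and 12.1% lower. The calls of Bambi, Acvrl1 and Acvr1 were kept in 9, 13 and 12 of the 15 fits with a library left out, and were lost under 4, 3 and 7 of 13 other settings, so that 0 to 3 genes of the list were called. With the GC and length correction Acvr1 was at 0.25 (adjusted p = 0.108 by edgeR's quasi-likelihood test). Against liver, 3 rose and 2 fell in FGF-type tumors (all genes 39.2% and 34.5%), and 2 rose and 3 fell in sgTrp53 + MYC tumors (all genes 36.9% and 33.0%). The activin receptor Acvr2b rose by 1.87 (SE 0.30) and 1.95 (SE 0.32), whereas its relative Acvr2a fell by 0.70 (SE 0.12) and 0.62 (SE 0.14) on the log2 scale. With no filter on low counts, Acvr2a in sgTrp53 + MYC tumors was at -0.33 (adjusted p = 0.107 by edgeR's quasi-likelihood test). Bmpr2, the type II receptor for bone morphogenetic proteins, fell by 0.81 (SE 0.17) in FGF-type tumors, and Bambi fell by 1.46 (SE 0.42) in sgTrp53 + MYC tumors. In Aldafermin + MYC against FGF19 + MYC tumors, 0 genes of the 4 lists passed edgeR's quasi-likelihood test.

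**Figure D4:**
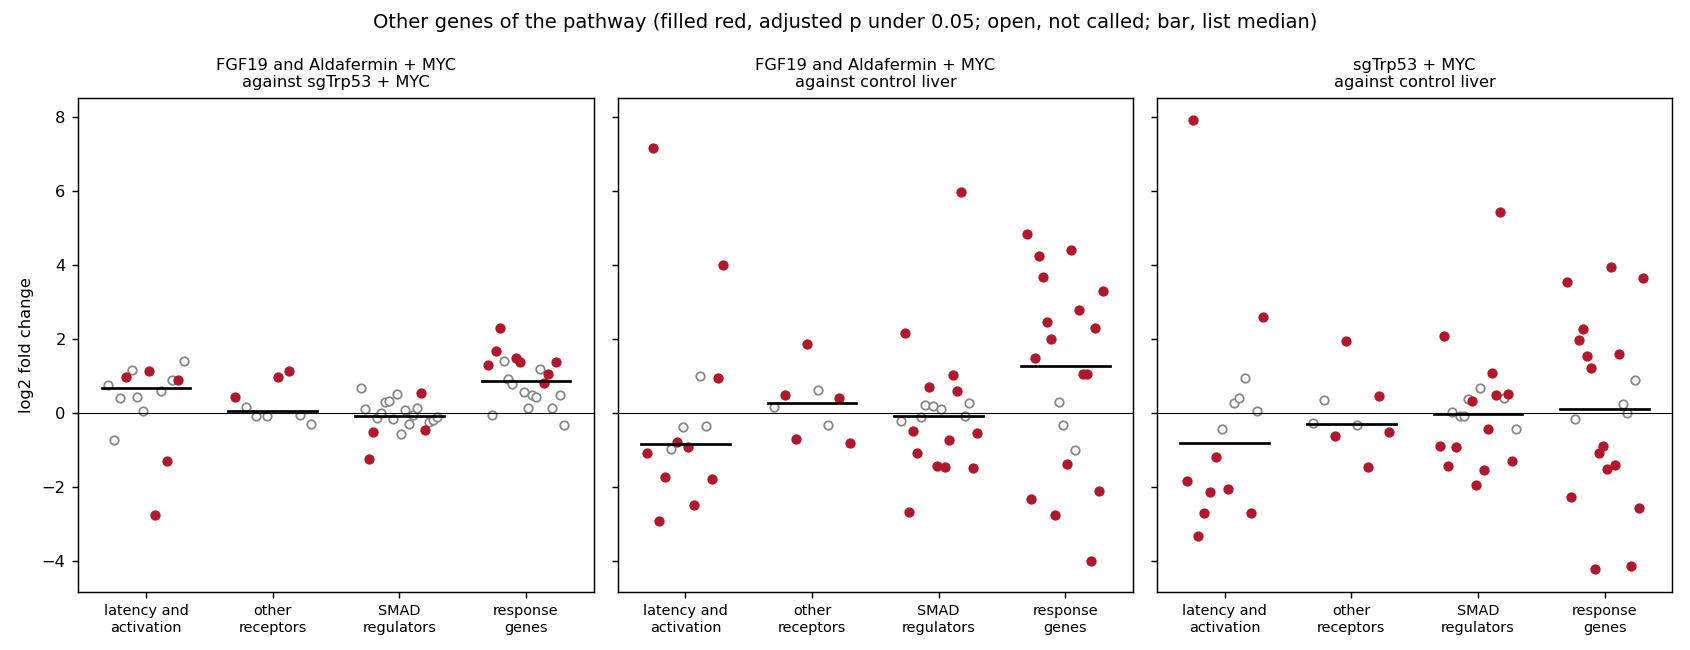
Log2 fold change (vertical axis) of the other tested genes of the pathway, by list, in 3 comparisons; filled red points passed an adjusted p of 0.05, open points did not, and bars are list medians. The response genes have a median of 0.87 in the first panel with 8 filled points, all above 0; the topmost point of the panels against liver is Cd109, which had at most 1 read in each liver.

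Markers of some other liver cell types also differed between groups. Between the tumor types, 11.6% of all genes tested were higher and 12.1% lower in FGF-type tumors. The summed level of 8 Kupffer cell and macrophage markers was 273 to 500 CPM in FGF19 + MYC tumors, 152 to 460 in Aldafermin + MYC tumors, 84.97 to 170 in sgTrp53 + MYC tumors and 390 to 598 in livers, and 5 of the 8 were higher in FGF-type than in sgTrp53 + MYC tumors. The 8 endothelial markers summed to 66.2 to 248 CPM in FGF-type and 63.8 to 157 in sgTrp53 + MYC tumors, with 1 of 8 called, near the share of all genes. The 8 stellate cell markers summed to 28.9 to 153 and 26.6 to 141 CPM, with 0 of 8 called by edgeR's quasi-likelihood test. Aldafermin + MYC replicate 3, the highest of its group for all 3 ligands, was also the highest of its group for macrophage (460 CPM), stellate (153 CPM) and endothelial (238 CPM) markers. Aldafermin + MYC replicate 5 was the lowest of its group for Tgfb1, Tgfbr2 and Smad3 and the highest for Tgfbr1 and Smad2. Among all genes tested, it was the lowest for 31.1% and the highest for 31.2%. This library was also the lowest of its group for macrophage and endothelial markers. The part of these cells in the differences of Tgfb3 and Tgfbr2 was not tested.

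Biliary markers stood apart in sgTrp53 + MYC replicate 2, with a sum of 779 CPM against 3.85 to 41.3 in the other 4 tumors of the group. Of the 5 tested, 4 were lower in FGF-type than in sgTrp53 + MYC tumors, Krt19 (-6.65, SE 1.18) and Krt7 (-6.33, SE 1.404) among them. Among all genes, 11.6% were higher and 12.1% lower in that comparison. Of the 8 hepatocyte markers, 2 were higher and 1 was lower there. With sgTrp53 + MYC replicate 2 and Aldafermin + MYC replicate 3 both left out, Tgfb3 was higher in FGF-type than in sgTrp53 + MYC tumors by 1.11 (adjusted p = 0.0378 by edgeR's quasi-likelihood test) and Tgfbr2 by 0.98 (adjusted p = 0.0106), whereas Smad3 was at -0.72 (adjusted p = 0.0525). Against liver, the summed stellate (232 to 334 CPM) and endothelial (308 to 494 CPM) markers of every liver were above those of every tumor, alongside the fall of Smad7 and, in Aldafermin + MYC and sgTrp53 + MYC tumors, of Tgfbr3. Their part in these falls was not tested. T and NK cell markers summed to at most 10.2 CPM and neutrophil markers to at most 23.2 CPM in any library.

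**Figure D5:**
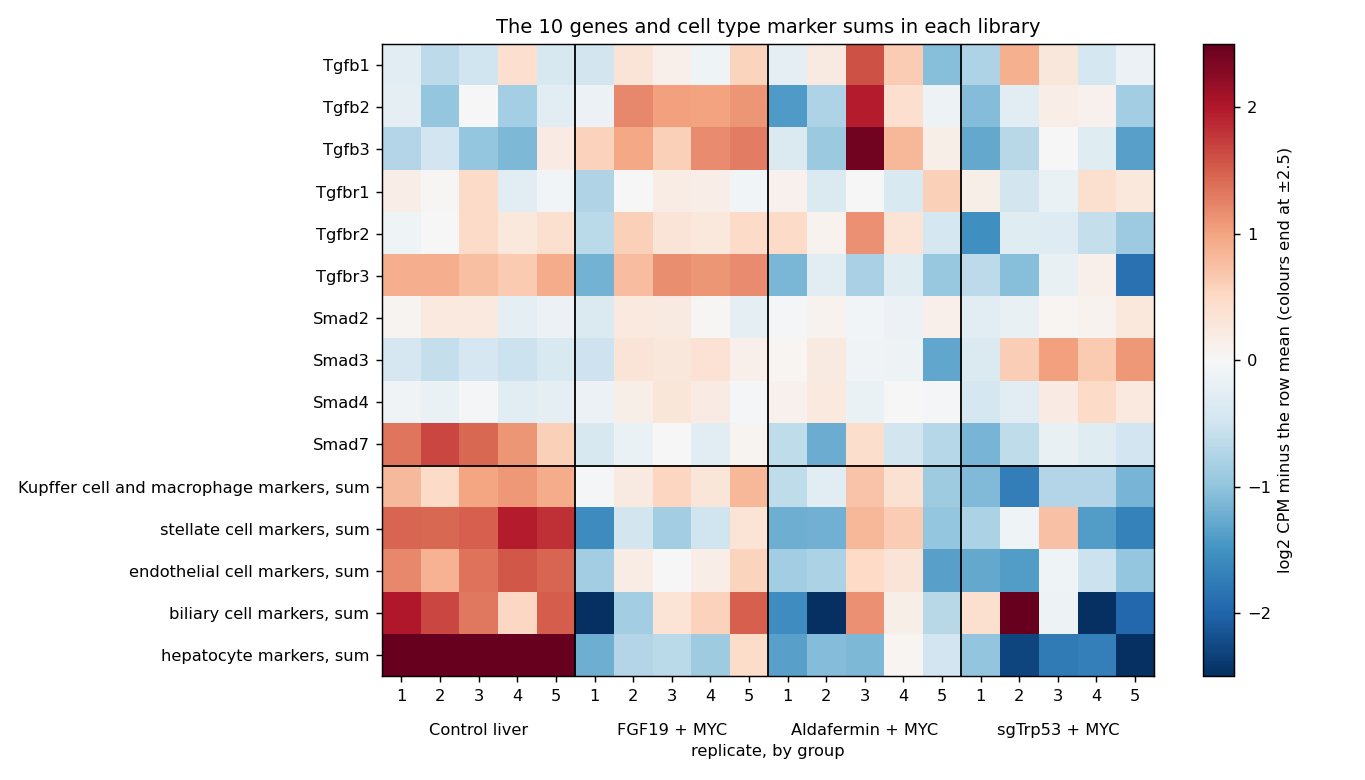
Log2 CPM minus the row mean (colour, ends at ±2.5) of the 10 genes and of summed cell type markers, with libraries on the horizontal axis by group and replicate. FGF19 + MYC replicate 1 is the lowest of its group for all 10 genes, and Aldafermin + MYC replicate 3 is the highest of its group for the 3 ligands and for the macrophage, stellate and endothelial sums.

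The genes most like Tgfb3, Tgfbr2 and Smad3, the 3 called between the tumor types, were sought over all 20 libraries, by the root mean square difference of log2 CPM after each gene was centred on its own mean. Closest to Tgfb3 were Myl9 (0.51), a smooth muscle myosin light chain, and Prss23 (0.55), where the spread of Tgfb3 itself was 0.97. Closest to Tgfbr2 were Rhog and Sema4c (0.29 each, own spread 0.60), and closest to Smad3 were Luzp1 (0.19) and Zc3h7b (0.22, own spread 0.58). The libraries share groups and tables, so likeness over them is a description.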

How the data were processed

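RNA was extracted from single snap-frozen tumors or livers. The authors made stranded mRNA libraries, aligned paired reads to mm39 with HISAT2 and counted them on RefSeq genes with htseq-count; per the labels, bcl2fastq 2.20.0.422 was used. The deposited values are raw counts per gene in 2 tables, without normalization; 0 sample columns were left out. The 5 summary lines were removed.

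A gene was kept where 5 or more libraries reached 1 CPM, and testing was done with edgeR 4.0.16 (limma 3.58.1, R 4.3.3): TMM normalization, 1 quasi-likelihood fit of the 4 groups, and p-values adjusted by Benjamini-Hochberg over all 14333 genes (threshold 0.05). CPM values use TMM library sizes. An SE is the log2 fold change divided by the square root of F. The script was tested on simulated data. DESeq2 1.42.0, edgeR's likelihood ratio test, other size factors and filters, a replicate block, a GC and length correction (genes with both values: 13794) and fits without single libraries were alternatives. The fits without 2 named libraries were chosen after seeing the data.

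All 10 members are named, and of each other list at most the 3 called genes with the largest change per comparison, with a mean of at least 1 CPM. The members and lists were chosen with earlier results of these data known. Replicates are separate mice, per the study's text. Sample pairs of a group differed by at least 13.9 times the counting noise (chi-square per degree of freedom), so none was a copy. Cell type names rest on marker lists alone.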

Additional observations from a re-analysis of the deposited data

Results flagged for a closer look

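In groups of 5 libraries, a library was set apart when its gap to the nearest other, as a share of the range of log2 levels, exceeded Dixon's limit. The libraries set apart depend on this scale, and the values below are given in CPM. Over 40 combinations of gene and group, 6 were set apart, where chance gives about 2 for independent combinations. Genes of the same library are not independent. FGF19 + MYC replicate 1 accounted for 5 of the 6, as the low library for Tgfb2 (1.23 CPM), Tgfbr1 (22.2 CPM), Tgfbr2 (17.5 CPM), Tgfbr3 (4.8 CPM) and Smad3 (25.2 CPM). It also had 18004977 reads on genes, the fewest of all libraries, and 34.0% unaligned reads, the most. It was the lowest of its group for the summed macrophage (273 CPM), stellate (28.9 CPM), endothelial (92.9 CPM), biliary (2.90 CPM) and hepatocyte (9135 CPM) markers. For T and NK cell (4.41 CPM) and neutrophil (15.5 CPM) markers it was the highest. The part of reads and of cell content in its low values was not tested. Aldafermin + MYC replicate 5 was the low library for Smad3 (14.7 CPM).

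The change from liver differed between the tumor types for 3 genes, by edgeR's quasi-likelihood test of the difference itself, in which the shared livers cancel: Tgfb3 by 1.56, Tgfbr2 by 1.00 and Smad3 by -0.69 (FGF-type minus sgTrp53 + MYC tumors, log2). It is the same test as that of FGF-type against sgTrp53 + MYC tumors above, and adds no second result. The sgTrp53 + MYC libraries are in a separate table, so that tumor type and table cannot be told apart here.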

How the results depend on the processing

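Of the 10 genes, the number called against sgTrp53 + MYC tumors or liver stayed within 1.5 times under all settings that left out no single library. Counts of the other lists between the tumor types moved further, over these settings from 1 to 6 for latency genes, 0 to 3 for receptors, 0 to 4 for SMAD regulators and 5 to 10 for response genes, where 5, 3, 4 and 8 were called, and receptors in FGF-type tumors against liver ran from 3 to 7 where 5 were called. In Aldafermin + MYC against FGF19 + MYC tumors, DESeq2 and the likelihood ratio test each called 1 of the 10 genes (Tgfbr3) in place of 0, and fits without a library called 0. Without a library, FGF-type against sgTrp53 + MYC tumors gave 1 to 4 calls (1 without sgTrp53 + MYC replicate 5), FGF-type tumors against liver 2 to 6 (2 without liver replicate 2 or 5), and sgTrp53 + MYC tumors against liver 4 to 5. The Tgfb1 share of FGF19 + MYC tumors was 78.1% with the longest transcript. Of 469 values of single genes under other settings, 423 kept direction and side of the threshold. For the named genes of the other lists, 42 of 431 such values and 36 of 480 without a library lost their call, and 0 turned direction. Without the filter on low counts, the median of all genes against liver moved by 0.18 (FGF-type) and 0.29 (sgTrp53 + MYC), and by -0.11 between the tumor types; with only the compared groups it moved by 0.10 for sgTrp53 + MYC tumors against liver.

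The labels give no pairing of mice by replicate number. Of 30 same-numbered pairs, 6 correlated over 0.1 (range -0.33 to 0.33), which cannot decide whether libraries of a number share a batch. With the number as a block, 0, 3, 4 and 4 of the 10 genes were called in the 4 comparisons, as without it, and 3120 in place of 3399 genes differed between FGF-type and sgTrp53 + MYC tumors; there the direction of Smad4 turned (0.0024), and Ltbp1 (-1.73, adjusted p = 0.171) and Ltbp3 (-0.997, adjusted p = 0.181) lost their calls by edgeR's quasi-likelihood test.

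All values of the 10 genes that turned direction belong to differences that passed no threshold, and the cause was not tested. In Aldafermin + MYC against FGF19 + MYC tumors, Smad2 was at -0.027 with DESeq2, -0.026 with RLE size factors and -0.029 with only the compared groups, and Tgfb3 at 0.0082 with upper quartile factors. With Aldafermin + MYC replicate 3 and sgTrp53 + MYC replicate 2 both left out (chosen after seeing the data), Tgfb1 was at -0.11 and Tgfbr2 at -0.088; with Aldafermin + MYC replicate 4 and FGF19 + MYC replicate 5 both left out (likewise), Tgfb3 was at 0.097 and Smad2 at -0.018. In FGF-type against sgTrp53 + MYC tumors, Smad2 was at 0.0055 with upper quartile factors and 0.0039 with a filter on the mean; with the GC and length correction Tgfbr1 was at 0.17, Smad2 at 0.15, Smad4 at 0.054 and Smad7 at -0.029; Tgfbr3 was at -0.076 with Aldafermin + MYC tumors alone and Smad4 at 0.020 with FGF19 + MYC tumors alone; and in the second pair of left-out libraries Smad2 was at 0.046 and Smad4 at 0.012. In FGF-type tumors against liver, Tgfbr1 was at 0.087 and Smad2 at 0.13 with no filter, and Tgfbr2 at -0.019 in the first pair of left-out libraries. In sgTrp53 + MYC tumors against liver, Tgfb3, Tgfbr1 and Smad2 were at 0.19, 0.27 and 0.24 with no filter and at 0.038, 0.12 and 0.084 with only the compared groups; Tgfb3 was at 0.032 with the GC and length correction, and Tgfbr1 at 0.093 in the first pair of left-out libraries.

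Without a library, ranges that crossed 0 were, in Aldafermin + MYC against FGF19 + MYC tumors, Tgfb1 -0.11 to 0.57, Tgfb3 -0.89 to 0.21, Tgfbr1 -0.088 to 0.19, Tgfbr2 -0.088 to 0.31 and Smad2 -0.076 to 0.072; in FGF-type against sgTrp53 + MYC tumors, Tgfb1 -0.0097 to 0.53, Tgfbr1 -0.22 to 0.014, Smad2 -0.064 to 0.070 and Smad4 -0.12 to 0.11; in FGF-type tumors against liver, Tgfbr1 -0.19 to 0.011, Tgfbr2 -0.017 to 0.26 and Smad2 -0.12 to 0.0084; and in sgTrp53 + MYC tumors against liver, Tgfb2 -0.041 to 0.25, Tgfb3 -0.31 to 0.17, Tgfbr1 -0.11 to 0.093 and Smad2 -0.12 to 0.015. Depth limits Tgfb2 most, with 11 to 31 reads in each liver.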
